A study of Mus musculus with 6 samples.

Results

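This report describes 9 genes of the mouse liver that are known targets of PPAR-alpha in fasting: Cyp4a10, Cyp4a14, Cpt1a, Ehhadh, Acot1, Pdk4, Angptl4, Fgf21 and Vnn1. They were picked by gene name from the 28880 genes of the deposited liver RNA-seq table, and all 9 were present once and passed the filter on low counts, as did 16717 genes in all. Angptl4, Cpt1a and Cyp4a10 rose after acute ethanol, by 3.35-fold, 2.25-fold and 2.54-fold. The other 6 did not pass the test, and among them were Pdk4 and Fgf21.

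PPAR-alpha is a nuclear receptor that is switched on by fatty acids and pairs with RXR to bind DNA at a repeated hexamer, the peroxisome proliferator response element. In the fasting liver, where fatty acids arrive from adipose tissue, it raises genes for fatty acid import into mitochondria, for oxidation in mitochondria, peroxisomes and microsomes, and for secreted factors that act on other tissues. The members cover these steps. Cyp4a10 and Cyp4a14 start omega-oxidation, Cpt1a lets fatty acids into mitochondria, Ehhadh acts in peroxisomes, Acot1 hydrolyses acyl-CoA, Pdk4 restrains pyruvate oxidation, Angptl4 and Fgf21 are secreted, and Vnn1 makes cysteamine and pantothenate.

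Liver RNA was sequenced from wild type male C57BL/6J mice aged 6 to 8 weeks, 3 per group, each library being labelled as 1 mouse of batch 1. Mice of the ethanol group were fasted for 12 h, were given 6 g/kg of ethanol once by mouth as a 50% solution and were sampled 24 h later, whereas control mice were kept without ethanol. Whether the controls were fasted or gavaged with vehicle is not stated, so for these fasting-responsive genes an effect of the fast and one of ethanol cannot be told apart. Libraries held 60514417 to 74210869 counts on genes, and the 7 hepatocyte markers (Alb and Apoa1 among them) were abundant in all 6 livers.

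The groups differed in composition, and this bears on every value below. The TMM factors, which correct for a few abundant genes taking up a library, were 0.768 to 0.836 in ethanol livers and 1.26 to 1.27 in control livers. The median change over the whole table was -0.043 (log2) with TMM and -0.71 with library size alone, so changes are best read against that median. Levels are given as CPM, counts scaled to the TMM-adjusted library, with mean ± SD and n = 3 per group. The summed CPM of the hepatocyte markers was 126896 to 129007 in ethanol livers and 70297 to 81642 in controls, with 2 of 7 called higher. Neutrophil markers summed to 1.62 to 10.3 CPM in ethanol livers, against 0.118 to 0.245 in controls, with 3 of the 3 tested called higher. Erythroid markers summed to 475 to 708 CPM against 157 to 193, with 3 of 4 called higher, and stellate markers to 117 to 147 CPM against 103 to 116, with none of 5 called. In these 4 lists the highest control was below the lowest ethanol liver. T cell markers lay the other way, at 0 to 0.403 CPM in ethanol livers against 0.525 to 0.799 in controls, with the 1 tested of 4 not called. The part of these 5 lists in the results was not tested. Adipocyte and skeletal muscle markers summed to at most 1.69 and 0.110 CPM. In bulk tissue, fewer cells of a type and less RNA per cell cannot be told apart.

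Across the 9 genes, 3 were differentially expressed genes (DEGs), all higher in ethanol livers, by the study's rule (adjusted p below 0.05 together with a change beyond 1 on the log2 scale). Among all genes tested, 10.4% were DEGs higher in ethanol and 13.8% lower. That background moved with the scaling, to 5.06% higher and 32.2% lower with library size alone, and to 4.65% and 31.4% with limma on log2(FPKM + 0.1). The adjusted p alone gave the same 3 genes, against a background of 21.5% of genes higher and 21.5% lower. In those 3 genes every ethanol liver was above every control, as in 28% of all genes tested, and no member had every ethanol liver below every control, as 31% of all genes did. By edgeR with TMM 0 members were lower, also at an unadjusted p under 0.05 and with DESeq2. Ehhadh was lower at the adjusted p with library size alone, with a mean FPKM of at least 5 and with limma. By limma on log2(FPKM + 1) 2 members were lower at an unadjusted p under 0.05, where the median change of all genes was -0.30. The share of all genes at an unadjusted p was not computed. The median log2 fold change of the members was 1.03, or 1.07 above the median of all genes. With library size alone it was 0.39, with 6 of 9 estimates above 0 instead of 8, and 1.10 above that of all genes. By limma on log2(FPKM + 1) it was 0.26, or 0.57 above that of all genes.

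**Figure D1:**
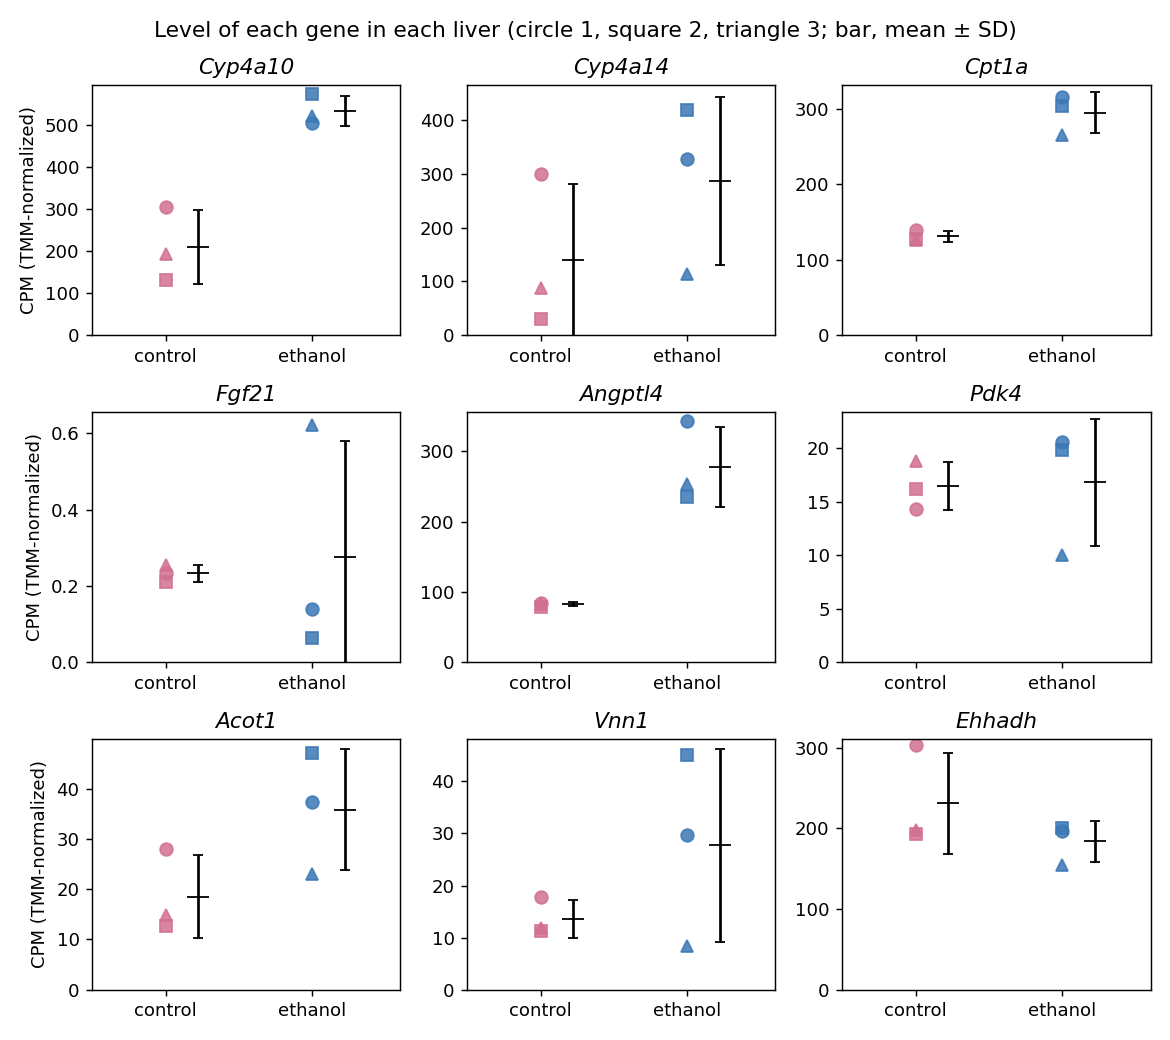
Level of each of the 9 genes in each liver, as CPM of the TMM-adjusted library on linear axes that start at 0; circles, squares and triangles are replicates 1, 2 and 3, and the black bar is the mean ± SD of 3 livers (cut at 0 where it would pass below). Ethanol and control livers are apart for Cyp4a10, Cpt1a and Angptl4 and overlap for the other 6, and ethanol 3 is the lowest ethanol liver in 6 of the 9 panels.

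Cyp4a10 (chr4:115375461-115390846) encodes a microsomal fatty acid omega-hydroxylase. It stood at 505, 572 and 521 CPM in ethanol 1, 2 and 3 and at 305, 132 and 192 CPM in control 1, 2 and 3. The ethanol livers lay close together (533 ± 35.0), and the controls were spread over a 2.31-fold range (210 ± 87.6) with control 1 on top. This gave a log2 fold change of 1.34 (SE 0.28, edgeR quasi-likelihood test, Benjamini-Hochberg adjusted p = 0.00833). With library size alone it was 0.68 (adjusted p = 0.0792), below the threshold.

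Cyp4a14 (chr4:115343397-115353339), a second omega-hydroxylase of the same cluster, was the most variable of the 9 genes among controls. Its levels were 327, 418 and 115 CPM in ethanol livers and 299, 30.9 and 88.3 CPM in controls. Control 1 stood at 9.66 times control 2, a spread wider than in 97.9% of the genes tested, and the groups overlapped. The log2 fold change of 1.04 (95% interval -0.83 to 2.92) did not pass the edgeR test (adjusted p = 0.324). That interval holds both a rise of the size seen for Cyp4a10 and a fall. Without control 1 the estimate moved to 2.26 (adjusted p = 0.0566), without control 2 to 0.57 (adjusted p = 0.561) and without ethanol 2 to 0.68 (adjusted p = 0.582).

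Cpt1a (chr19:3372334-3435733) encodes carnitine palmitoyltransferase 1, the gate for long-chain fatty acids into mitochondria. It was at 316, 304 and 265 CPM in ethanol livers (295 ± 26.7) and 140, 127 and 126 CPM in controls (131 ± 7.80). All ethanol livers were above all controls, and both groups were tight. On the log2 scale the difference was 1.17 (SE 0.11, edgeR adjusted p = 0.000426). It kept its adjusted p with library size alone (0.0120), but its log2 fold change there, 0.51, was under the threshold of 1.

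Ehhadh (chr16:21580037-21606557), the bifunctional enzyme of peroxisomal beta-oxidation, was the only member with a negative estimate under TMM. Its levels were 197, 201 and 154 CPM in ethanol livers and 303, 193 and 198 CPM in controls. Control 1 was high, and the other 2 controls lay within the ethanol range. The log2 fold change was -0.33 (95% interval -0.81 to 0.15, edgeR adjusted p = 0.231). It was -0.99 with library size alone (adjusted p = 0.00698) and -0.60 with a mean FPKM of at least 5 (adjusted p = 0.0402), both passing the adjusted p but not the fold threshold, and -0.088 without control 1.

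Acot1 (chr12:84056264-84065145), a cytosolic acyl-CoA thioesterase, stood at 37.3, 47.2 and 23.1 CPM in ethanol livers and 27.9, 12.6 and 14.9 CPM in controls. Ethanol 3 was below control 1, and these 2 livers made the only overlap. Its log2 fold change of 0.96 (95% interval 0.11 to 1.80) missed the threshold by edgeR (adjusted p = 0.0674). It was called without ethanol 3 (1.21, adjusted p = 0.0124), without control 1 (1.38, adjusted p = 0.0252) and with the trend in transcript length removed (1.18, adjusted p = 0.0382), and was 0.71 without ethanol 2 (adjusted p = 0.182).

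Pdk4 (chr6:5483351-5496309) encodes a kinase that inactivates pyruvate dehydrogenase and so spares glucose. It was at 20.6, 19.9 and 10 CPM in ethanol livers and 14.3, 16.2 and 18.8 CPM in controls, with the controls lying inside the ethanol range. Its log2 fold change was 0.032 (95% interval -0.61 to 0.67, edgeR adjusted p = 0.935) and was negative with library size alone (-0.63). The upper end of the interval lies below the estimates for Angptl4, Cyp4a10 and Cpt1a.

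Angptl4 (chr17:33992724-34000804), a secreted inhibitor of lipoprotein lipase, had the smallest p of the members. Its levels were 342, 236 and 254 CPM in ethanol livers (277 ± 57.1) and 85.1, 79.1 and 83.6 CPM in controls (82.6 ± 3.15). The lowest ethanol liver was well above the highest control. By edgeR the gene rose by 1.75 on the log2 scale (SE 0.16, adjusted p = 0.000342). It was a DEG under each of the 18 alternative settings, with log2 fold changes of 1.03 to 1.96 and adjusted p of at most 0.00463. Among these settings, the adjusted p alone reuses the main fit, and the summing of copies leaves the counts of Angptl4 as they were.

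Fgf21 (chr7:45263310-45264914) encodes a hormone that the liver releases in fasting. It was barely expressed in either group, with 8, 4 and 34 counts in ethanol livers and 22, 16 and 21 in controls. In CPM these were 0.139, 0.0654 and 0.623 against 0.234, 0.210 and 0.255. Ethanol 1 and 2 were below all controls and ethanol 3 above them. The log2 fold change was 0.23 (95% interval -1.73 to 2.19, edgeR adjusted p = 0.839), and without ethanol 3 it was -1.17 (adjusted p = 0.238). The interval includes both -1 and 1.

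Vnn1 (chr10:23770586-23781241), the pantetheinase vanin-1, was at 29.8, 45.1 and 8.30 CPM in ethanol livers and 17.8, 11.2 and 11.8 CPM in controls. Ethanol 1 and 2 were above all controls, and ethanol 3 was below them. The log2 fold change of 1.03 (95% interval -0.23 to 2.29) did not pass by edgeR (adjusted p = 0.160), and it was 1.47 without ethanol 3 (adjusted p = 0.00142) and 0.49 without ethanol 2 (adjusted p = 0.483).

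Several members followed the same livers. Control 1 was the highest control for 7 of the 9 genes, compared with 41.0% of all genes tested. Ethanol 3 was the lowest ethanol liver for 6 of the 9, compared with 39.1% of all genes. Both held for 5 members and for 16.2% of all genes. In the 49 other targets tested, described below, control 1 was highest in 38 genes and ethanol 3 lowest in 38. These counts describe the libraries and were made after the values were seen. Leaving out ethanol 3 raised the number of DEGs among the members from 3 to 5, adding Acot1 and Vnn1, beside 10.9% of all genes higher and 16.5% lower without that liver.

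**Figure D2:**
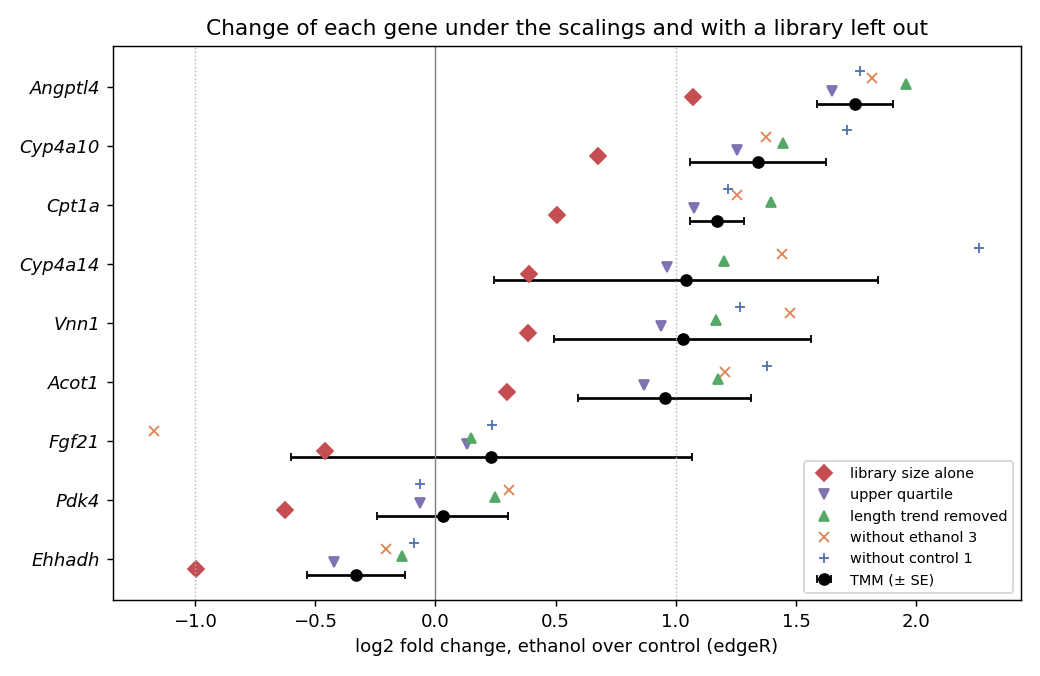
Log2 fold change of each gene, ethanol over control, from edgeR; black points with bars are the TMM fit ± SE, and the other marks are the same fit under other scalings or with 1 liver left out. Angptl4 stays beyond the dotted line at 1 in all 6 fits shown, library size alone moves each gene to the left, and leaving out ethanol 3 carries Fgf21 to -1.17.

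Ratios of 2 genes within a library do not depend on the scaling and compare the members with each other. The ratio of Angptl4 to Ehhadh counts was 1.74, 1.17 and 1.64 in ethanol livers and 0.281, 0.411 and 0.423 in controls. That of Cpt1a to Ehhadh was 1.6, 1.51 and 1.72, compared with 0.462, 0.660 and 0.636. For Cyp4a10 it was 2.57, 2.85 and 3.37 against 1.01, 0.687 and 0.972, and for Acot1 0.190, 0.235 and 0.150 against 0.0922, 0.0656 and 0.0754. In each of these 4 ratios the lowest ethanol liver was above the highest control. The exact two-sided permutation test over livers gave p = 0.1 for each, the smallest that 3 against 3 allows, and 0.2 after Benjamini-Hochberg adjustment over the 8 ratios formed. In the ratios of Cyp4a14, Fgf21, Pdk4 and Vnn1 to Ehhadh the groups overlapped. Ehhadh was taken as the reference after its values were seen.

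Levels between genes were compared on the FPKM scale, which accounts for transcript length. Within a liver, Cyp4a10 ranked first of the 9 in 5 of 6 livers, and Fgf21 ranked last in all 6. Cyp4a10 was at 174 to 212 FPKM in ethanol livers and Fgf21 at 0.0513 to 0.464 FPKM. Ehhadh ranked above Angptl4 in each control (76.2 to 120 against 26.3 to 28.5 FPKM) and below it in ethanol 1 and 3. In ethanol livers Angptl4 (51.3 to 70.1 FPKM) overlapped with Ehhadh (37.1 to 52.5) and with Cyp4a14 (31.6 to 126). Acot1, Vnn1 and Pdk4 shared the range between 2.04 and 14.6 FPKM in both groups, and Pdk4 was the lowest of the 3 in each ethanol liver but not in control 2 and 3.

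Near copies can share reads. Of all 150-base windows of the Cyp4a10 transcript, 4.34% also occur in Cyp4a31 or Cyp4a32, and 12.4% of those of Acot1 occur in Acot2, Acot3 or Acot5, while the other 7 members had no such window. With copies summed (Cyp4a10 with Cyp4a31 and Cyp4a32, Acot1 with Acot2, and Vnn1 with its family gene Vnn3) the log2 fold changes were 1.31, 0.97 and 0.81, with edgeR adjusted p of 0.00732, 0.0632 and 0.0276. Vnn1 shared no window with Vnn3, so their sum joins separate genes and does not bear on shared reads. Vnn3 passed the edgeR adjusted p by itself (0.00990). The copies of Cyp4a10 were themselves DEGs, Cyp4a31 at 1.17 (adjusted p = 0.00232) and Cyp4a32 at 1.01 (adjusted p = 0.00500), whose call was lost without ethanol 1, control 2 or control 3 (0.90, 0.89 and 0.95), with DESeq2 (0.99), with upper quartile scaling (0.92) and with no filter on low counts (0.98). Both calls were lost with library size alone (0.50 and 0.34), with a mean FPKM of at least 5 (0.89 and 0.74) and with limma on log2(FPKM + 1) (0.45 and 0.33) or log2(FPKM + 0.1) (0.51 and 0.35). Cyp4a12a and Cyp4a12b, whose log2 fold changes were -0.046 and 0.21, did not pass.

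Within the thioesterase cluster, Acot3 rose (3.30, 8.01 and 3.28 CPM against 1.32, 0.472 and 0.995, log2 fold change 2.38, edgeR adjusted p = 0.00908). Acot5 had 31, 40 and 22 counts in ethanol livers and 0, 1 and 0 in controls, and was at least 14.8-fold higher against a floor of 3 counts per library. Acot2 at 1.05 (adjusted p = 0.0617), Acot4 at 0.0033 and Acot6 at -0.86 (adjusted p = 0.0580) did not pass. Of the other family genes, Vnn3 was at 0.71 (adjusted p = 0.00990) and Pdk2 at -0.49 (adjusted p = 0.0121), which passed the adjusted p alone. Cpt1b, Cpt1c, Pdk1, Pdk3, Angptl6, Angptl8 and Hadha did not pass, and Fgf15 had no count.

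**Figure D3:**
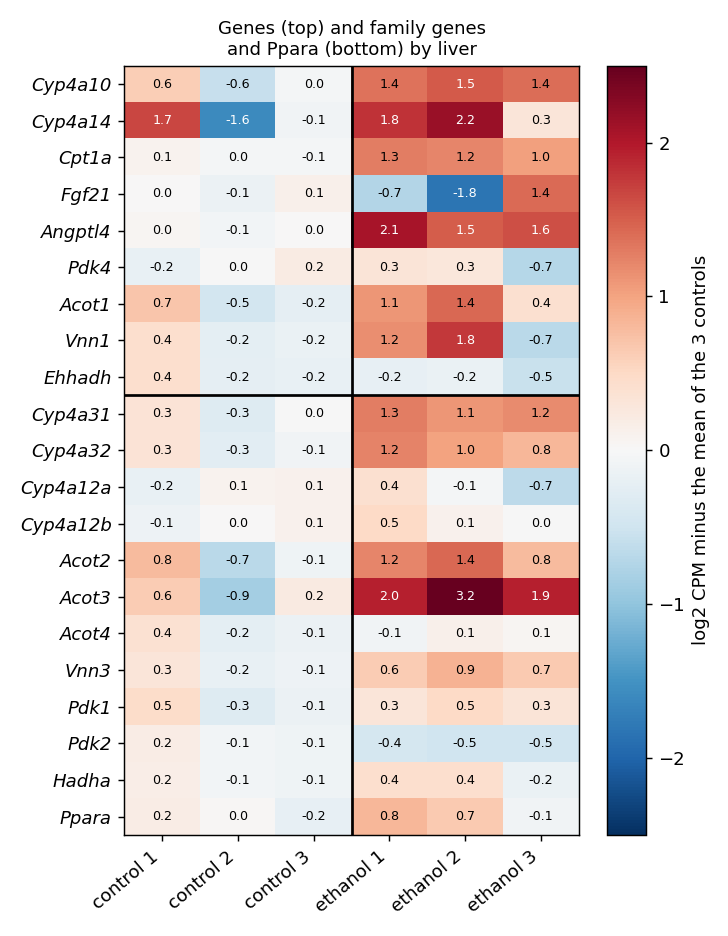
Log2 CPM of the 9 genes (above the line) and of 11 family genes and Ppara (below it) in each liver, minus the mean of the 3 controls of that gene; red is above and blue below that mean. Cyp4a31, Cyp4a32, Acot2 and Acot3 are above 0.7 in every ethanol liver, and Vnn1 and Pdk4 are at -0.7 in ethanol 3 alone.

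Beyond the members, 50 further genes known as PPAR-alpha targets were listed, of which 49 were tested. By edgeR 11 were DEGs higher in ethanol livers and 0 lower, beside 10.4% and 13.8% of all genes. At the adjusted p alone 28 were higher and 0 lower, beside 21.5% of all genes in each direction. At an unadjusted p under 0.05, 2 were lower and 30 higher by edgeR, 3 lower and 29 higher by DESeq2, and 13 lower and 10 higher by limma on log2(FPKM + 1). The share of all genes at that cutoff was not computed. By limma on log2(FPKM + 1) the median change of all genes was -0.30, with 2.55% of them DEGs higher and 10.7% lower. The groups did not overlap in 31 genes that were higher and 4 that were lower, beside 28% and 31% of all genes. The median log2 fold change was 0.56, or 0.61 above that of all genes. With library size alone the median turned to -0.10 and 22 of 49 estimates were above 0 instead of 42, with 7 DEGs higher and 3 lower beside 5.06% and 32.2% of all genes in that setting, but the median was again 0.61 above that of all genes. At the adjusted p alone 10 were then higher and 12 lower, and the share of all genes at that cutoff was not computed.

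The 5 rises with the smallest p were Eci2, Plin5, Cidec, Plin4 and Slc27a2. Eci2, an enoyl-CoA isomerase for unsaturated fatty acids, was at 313, 305 and 274 CPM against 103, 90.5 and 95.1 (log2 fold change 1.63). Slc27a2, which activates and imports fatty acids, was at 1.38. The 3 others coat lipid droplets. Cidec was at 100, 60.3 and 39.9 CPM against 0.692, 1.44 and 0.704 (6.15), Plin4 at 62.6, 36.5 and 102 CPM against 3.12, 3.38 and 3.12 (4.38), and Plin5 at 117, 116 and 150 CPM against 35.7, 34.6 and 32.6 (1.90). The edgeR adjusted p of these 5 was 0.000128 to 0.000734, and no ethanol liver overlapped with a control, though Eci2 and Slc27a2 fell under the fold threshold with library size alone (0.96 and 0.71). Hilpda, Txnip, Acot3, Acot5, Cyp4a31 and Cyp4a32 were the other DEGs.

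Other targets did not reach the fold threshold. Cpt2, the partner of Cpt1a on the inner mitochondrial membrane, had a log2 fold change of -0.0084 (95% interval -0.26 to 0.25) and did not pass. Fabp1, Acsl1, Hadha and Plin2 did not pass either. Acadm and Acadl were at 0.61 and 0.56 with edgeR adjusted p of 0.0178 each, and both were negative with library size alone (-0.055 and -0.10).

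Ppara itself stood at 36.0, 31.8 and 19.0 CPM in ethanol livers and 22.9, 20.6 and 17.5 CPM in controls. Its log2 fold change of 0.51 (95% interval -0.05 to 1.07) did not pass by edgeR (adjusted p = 0.122), and it was -0.15 with library size alone. Rxra, its partner, was at 0.56 (adjusted p = 0.00528), or -0.11 with library size alone. Of the 18 genes of the receptor and its cofactors, 3 were DEGs higher and 0 lower by edgeR, beside the 10.4% and 13.8% of all genes. At the adjusted p alone 5 were higher and 2 lower (Rxrg at -0.88 and Crebbp at -0.69), beside 21.5% of all genes in each direction. The groups did not overlap in 4 that were higher and 5 that were lower, beside 28% and 31% of all genes. The counts were 1 DEG higher and 4 lower with library size alone, beside 5.06% and 32.2% of all genes. At the adjusted p alone that scaling gave 1 higher and 10 lower, and the share of all genes at that cutoff was not computed. Lpin1, a phosphatidate phosphatase and coactivator, was at 1338, 907 and 606 CPM against 54.7, 39.7 and 39.7 (log2 fold change 4.41, adjusted p = 0.000187). Ppargc1b was at 2.16 (adjusted p = 0.0197), with ethanol 3 inside the control range, and Pparg at 1.00 (adjusted p = 0.0318), at the threshold. The calls of both were lost when ethanol 1, ethanol 2, control 2 or control 3 was left out, and that of Pparg also without control 1, which left 1 or 2 DEGs of the 18. Ppargc1a was at 1.34 (adjusted p = 0.0653).

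The partners of the secreted members and of Pdk4 were read in the same fit, where 10.4% of all genes were DEGs higher and 13.8% lower. Among the 5 FGF21 receptor genes, Fgfr1 rose (log2 fold change 1.86, edgeR adjusted p = 0.00148). Fgfr2 and Fgfr4 fell by 1.51 and by 1.11 (adjusted p = 0.000233 and 0.00547), and the call of Fgfr4 was lost without ethanol 3 (-0.93). In that fit the list had 2 DEGs higher and 1 lower, beside 10.9% and 16.5% of all genes. Klb, the co-receptor, was at 28.6, 33.8 and 12.3 CPM against 17.3, 9.98 and 12.7 (0.90, adjusted p = 0.0896). Lpl, the enzyme Angptl4 inhibits, was at 16.6, 14.1 and 14.3 CPM against 14.3, 22.6 and 24.6 (-0.45, adjusted p = 0.122), with 1 control in the ethanol range. Of the 8 genes of the lipoprotein lipase axis, Apoa5 (1.26, adjusted p = 0.000289) and Gpihbp1 (1.07, adjusted p = 0.00992) were DEGs, both higher. With library size alone they were at 0.59 and 0.40 and no longer called. The list then had 0 DEGs higher and 1 lower, beside 5.06% and 32.2% of all genes. The call of Gpihbp1 was also lost without ethanol 3, control 2 or control 3 (0.86, 0.99 and 0.97). Among 11 genes around pyruvate dehydrogenase, the phosphatase Pdp2 rose (1.05, adjusted p = 0.0142) and its regulator Pdpr fell by 1.63 (adjusted p = 0.00207). The call of Pdp2 was lost when ethanol 2 or any control was left out. With library size alone the list had 0 DEGs higher and 3 lower, beside 5.06% and 32.2% of all genes.

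Other lists of the fed, fasted and stressed liver give the setting in which the members were read. Of 8 glucocorticoid-induced genes 6 were DEGs higher and 1 lower, with a median log2 fold change of 1.89. Beside this list and those that follow, 10.4% of all genes were DEGs higher and 13.8% lower. Klf9, Tat, Per1, Zbtb16 and Fkbp5 were at 1.64, 2.13, 3.85, 2.99 and 3.95, Dusp1 at 1.32, and Tsc22d3 fell by 1.06. The call of Dusp1 was lost when any library other than ethanol 3 was left out, and that of Tsc22d3 without ethanol 3 or control 1. The list had 4 DEGs higher and 1 lower with library size alone, beside 5.06% and 32.2% of all genes. Among 7 CREB and FoxO fasting genes, Sds, Igfbp1 and Pck1 rose (3.69, 3.69 and 1.03), and G6pc1, the glucose-6-phosphatase gene, fell by 2.89, from 767, 940 and 929 CPM in controls to 152, 164 and 39.7. The call of Pck1 was lost when any library other than ethanol 3 was left out and with library size alone (0.37). In the insulin-induced lipogenic list Thrsp rose (2.90) and Acacb, Mlxipl and Acly fell by 1.30, 1.17 and 1.33, with 9 other genes not called. This list had 1 DEG higher and 7 lower with library size alone, beside 5.06% and 32.2% of all genes. It had 3 higher and 1 lower with the trend in transcript length removed, beside 12.5% and 10.6%. Without ethanol 3 it had 4 higher and 2 lower, beside 10.9% and 16.5%. The call of Acly was lost on leaving out any library but ethanol 2. Of 10 integrated stress response genes, a group that counts Fgf21 among its known relatives, Atf3, Chac1, Gdf15 and Ppp1r15a rose (7.46, 5.12, 2.80 and 2.11) and Atf5 fell by 2.26. The edgeR adjusted p of these calls ran from 5.61e-05 to 0.0461.

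**Figure D4:**
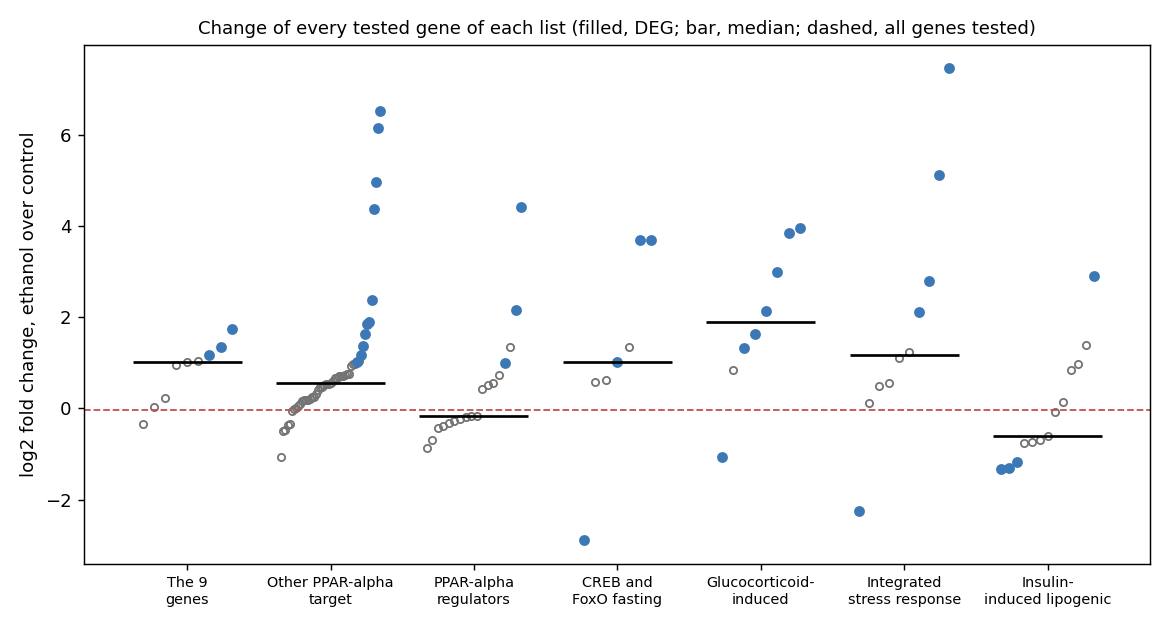
Log2 fold change, ethanol over control, of every tested gene of the 9 genes described and of 6 lists; filled points are DEGs, open points are not, the black bar is the list's median and the dashed line the median of all genes tested (-0.043). The medians are 1.03 for the 9 genes, 0.56 for the other targets and -0.16 for the regulators.

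The sequence the receptor binds was searched in the 250 bases before the start site, in the promoter table of RefSeq (GRCm38.p6), which held 5 of the 9 members: Cpt1a, Fgf21, Pdk4, Acot1 and Ehhadh. The motif was AGGTCANAGGTCA on both strands. None of the 5 had a stretch with 3 or fewer of the 12 fixed letters changed, which 21.3% of all 32851 promoters had, and the best stretch in each had 4 changed. Up to 2 changed letters were found in 3.24% of all promoters. In the other targets 15 of 51 promoters (29.4%, from 41 genes) had up to 3 changed, and 5 of the 51 had up to 2. The single hexamer AGGTCA was present in Cpt1a alone of the 5 and in 14% of all promoters. The stretches of Cpt1a, which rose, and of Pdk4, which did not pass, are printed beside that of Fabp1, which had 1 letter changed (on the opposite strand). They show how far the 2 members' nearest stretches are from the motif in this window, and capitals mark the 13 bases closest to it. In GRCm38.p6 they lie at chr19:3323125-3323197 (+ strand), chr6:5496392-5496464 (- strand) and chr6:71199782-71199854 (+ strand). These positions cannot be set against the gene positions given above, which follow the deposited table and differ from GRCm38.p6.
Cpt1a: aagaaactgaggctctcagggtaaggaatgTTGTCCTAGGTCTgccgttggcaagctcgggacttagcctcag
Pdk4: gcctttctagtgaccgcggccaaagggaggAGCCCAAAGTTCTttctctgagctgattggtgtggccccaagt
Fabp1: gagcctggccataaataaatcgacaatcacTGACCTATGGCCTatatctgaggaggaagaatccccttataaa
Fabp1 stood at 1285, 1239 and 499 CPM in ethanol livers and 972, 804 and 878 CPM in controls (log2 fold change 0.19, edgeR adjusted p = 0.672). A match is a description of these letters and not a binding site, and elements outside the window were not searched.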

How the data were processed

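The authors deposited, for each gene and library, a whole-number count that was not normalized and an FPKM value scaled to transcript length and library size. Paired-end reads were filtered and aligned by the authors; aligner, counter and strand use are not given in the sources used here. The submitters' processing notes name GRCm38 and mm10, yet only 1.83% of the 27049 genes shared with the GENCODE annotation of GRCm38 had the same coordinates, so gene positions follow the deposited table and their build is unsettled. The table held 1 column of counts that matches no sample, which was not used.

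Counts were kept by filterByExpr, scaled by TMM and compared by edgeR's quasi-likelihood test (two-sided, 3 against 3, no covariate; R 4.3.3, edgeR 4.0.16) with Benjamini-Hochberg adjustment over 16717 genes. The study's rule for DEGs was used (adjusted p below 0.05 together with a change beyond 1 on the log2 scale). The common biological coefficient of variation was 0.299. limma 3.58.1 on log2(FPKM + 1) and DESeq2 1.42.0 were alternatives. On simulated counts for ethanol against control, edgeR recovered 139 of 179 changed genes (77.7%) with 6 false calls among 16848 genes tested, DESeq2 133 of 200 (66.5%) with 17 false calls among 26070, and limma on log2(FPKM + 1) 71 of 165 (43.0%) with 2 false calls among 16116. The simulation changed 200 genes, as many up as down, with the same dispersion for every gene and no other difference in composition. Each tool's total counts the changed genes it tested. These rates are therefore not the error rates of the calls in these data, where the groups differed in composition. Libraries of a group differed beyond sampling noise, so none was a duplicate. The members and lists were chosen with earlier results of these data known. Named genes are the members, their family genes, Ppara, Rxra, Klb, Fgfr4, Lpl and up to 5 rises and 5 falls per list by smallest p; others, such as Cpt2 and Fabp1, were added after their values were seen. Some items of the lists are not reported here.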

Additional observations from a re-analysis of the deposited data

How the results depend on the processing

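Of 160 log2 fold changes of single members under the alternative settings, 136 kept their direction and side of the threshold. These include values that could hardly move. The adjusted p alone reuses the fold changes of the main fit, and summing copies alters the counts of Cyp4a10, Acot1 and Vnn1 alone among the members. The 3 DEGs among the members became 1 (Angptl4, higher) with library size alone and with limma on log2(FPKM + 1) or log2(FPKM + 0.1). They became 2 of the 7 tested with a mean FPKM of at least 5 (Cpt1a was at 0.90), and 3 to 5 when a library was left out. Among all genes 8.57% to 10.9% were DEGs higher and 9.88% to 16.5% lower when a library was left out. The 11 other targets that were DEGs became 6 in all with limma on log2(FPKM + 1) (4 higher, 2 lower), beside 2.55% of all genes higher and 10.7% lower. They became 6 (all higher) of the 41 tested with a mean FPKM of at least 5, beside 9.91% and 10.2%. At the adjusted p alone 28 passed, beside 21.5% of all genes in each direction. With library size alone 7 were higher and 3 lower, beside 5.06% and 32.2% of all genes. With limma on log2(FPKM + 0.1) 6 were higher and 3 lower, beside 4.65% and 31.4%. Fgf21 turned to -0.46 with library size alone, -0.10 and -0.56 with limma (pseudocounts 1 and 0.1), and spanned -1.17 to 0.69 when a library was left out. Pdk4 turned to -0.63 with library size alone, -0.064 with upper quartile scaling, -0.56 and -0.69 with limma, and spanned -0.14 to 0.31. TMM assumes that most genes do not change; which scaling is right was not tested. Same-numbered livers did not deviate together (correlations -0.04, -0.03 and -0.01), so the numbers were not taken as pairs. With the replicate block, Fgf21 was at -0.31, Pdk4 at -0.024, the members kept 3 DEGs and the other targets 11, and all genes gave 1518 DEGs higher and 2000 lower instead of 1738 and 2301. Fgf21 rested on 4 to 34 counts per library and Cyp4a14 on 2356 to 28028, with similar SEs (0.83 and 0.80).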

Other observations

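For each member, the gene with the most similar profile over the 6 libraries was sought among 11278 genes, by the root mean square difference of log2 CPM centred on each gene's own mean. Cpt1a was closest to Mpc1, a subunit of the mitochondrial pyruvate carrier (0.0430 log2 units). Angptl4 was closest to Phc2 (0.0999), Cyp4a10 to Sft2d1rt (0.143), Cyp4a14 to Nipal1 (0.164), Acot1 to Inmt (0.164) and Vnn1 to Arl4d (0.193). Ehhadh was closest to Cd320 (0.0608) and Pdk4 to Rsad2 (0.0627), while Fgf21, at few counts, had no profile nearer than 0.268 (Golt1b).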
